A study of Mus musculus with 15 samples.

Results

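The mitochondrial ribosome genes were followed here together with Gadd45gip1, which encodes a protein of the same particle under another name. The set held Gadd45gip1 and each gene whose symbol was Mrpl or Mrps with a number and at most 1 further letter, with a mean normalized count of 10 or more over the 15 samples. That gave 78 of the 55536 genes in the deposited tables, of which 15389 reached that mean. The symbol pattern and Gadd45gip1 gave 79 genes, and Mrpl53 was left out because it was listed at 0 in every sample. The member nearest above the limit was Mrps18c, with a mean of 71.5. Gadd45gip1 had been singled out for its difference between D489V and control muscle in these samples, so its values in that comparison are given as a description with no test. The other 77 genes were taken by name.

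The study measured poly(A) RNA from skeletal muscle of male mice aged 2 months in 3 groups of 5 samples. Controls were labelled wild type. Knockout mice lacked Pdgfrb, the platelet-derived growth factor receptor beta, in cells expressing myogenin, a transcription factor of differentiating muscle cells. D489V mice carried a constitutively active form of the same receptor, also restricted to myogenin-expressing cells. The labels gave no muscle name, litter, extraction batch or name of the Cre line. In bulk muscle, fewer cells of a type and less RNA per cell cannot be told apart. The labels name 15 samples and do not state that each is a separate animal, so the p-values measure the spread between these samples.

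Pdgfrb itself had normalized counts of 1673 to 1848 in the controls, 958 to 1628 in the knockouts and 820 to 1062 in the D489V samples. Sums of normalized counts ran from 29815559 to 36489777, genes above 0 from 20799 to 23783, and Spearman correlations between samples from 0.948 to 0.993. Marker genes of muscle fibres were present in all samples, with summed counts from 5558439 to 7657035 over 10 genes. The knockout replicate 3 library, labelled male, had 3165 normalized counts of Xist, an RNA of the inactive X chromosome in females, against at most 101 in any other library. The Gadd45gip1 values, the member medians and the count of members called are also given without it.

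Mitochondrial ribosomes translate the few messenger RNAs encoded by mitochondrial DNA, all of them for membrane subunits of the respiratory chain and ATP synthase. Their protein parts are encoded in the nucleus, made in the cytosol and imported. Some have counterparts in bacterial ribosomes and others occur only in mitochondria. Gadd45gip1, also called CRIF1, is a mitochondria-specific protein of the large subunit near the exit of the peptide tunnel, where it takes part in inserting new peptides into the inner membrane, and it was first described as a nuclear partner of Gadd45 proteins. Skeletal muscle depends on these ribosomes for its oxidative capacity.

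Promoters of these genes are shown first, as the sequence the members can be compared on. The RefSeq promoter table of mouse build GRCm38.p6 covered 68 of the 78 genes in windows from 250 bases before to 50 after the start. The motifs searched, on both strands, were CCGGAAG, the core bound by ETS factors such as GABPA, GCGCANGCG, the core of NRF1, and AAGATGGCG, the core of YY1. All 3 factors are known regulators of nuclear genes for mitochondria. The ETS core was found in 25 of 68 promoters (36.8%), against 9.93% of all 27025 promoters and 18.6% of the 11142 promoters of genes with a mean of 10 or more in these muscles. The NRF1 core was found in 16 (23.5%), against 7.03% and 14.1%. The YY1 core was found in 8 (11.8%), against 1.64% and 3.27%. Together 41 promoters held at least 1 core and 27 held none, and no matches of different motifs overlapped in these promoters. Promoters of cytosolic ribosome genes held the ETS core in 41.0%, the NRF1 core in 14.8% and the YY1 core in 6.56%. Promoters of nuclear respiratory chain genes held them in 24.6%, 30.8% and 10.8%.

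Each printed window lies before the RefSeq start and outside GENCODE M21 exons of its gene, and runs 5′ to 3′ on the strand of the gene with the motif in capitals. A match is a description of letters and no evidence of binding. For the ETS core the windows of Mrpl48 (chr7:100583131-100583224, minus strand, upstream of the RefSeq start and within an intron of the longer GENCODE model) and Mrps18a (chr17:46110918-46110985, plus strand, upstream of the gene) are given, the genes with the highest means among those that met these conditions.
Mrpl48: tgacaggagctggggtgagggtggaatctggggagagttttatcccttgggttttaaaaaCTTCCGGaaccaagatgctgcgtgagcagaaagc
Mrps18a: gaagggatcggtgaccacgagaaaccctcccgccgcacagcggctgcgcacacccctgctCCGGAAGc
The Mrpl48 match reads on the opposite strand and the Mrps18a match on the strand of the gene. For the NRF1 core, Mrpl12 (chr11:120484497-120484605, plus strand) had the highest mean, and Mrpl9 (chr3:94443248-94443317, plus strand) differed most between knockout and D489V muscle among holders.
Mrpl12: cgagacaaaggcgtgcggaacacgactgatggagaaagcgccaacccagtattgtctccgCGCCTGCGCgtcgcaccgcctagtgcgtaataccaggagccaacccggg
Mrpl9: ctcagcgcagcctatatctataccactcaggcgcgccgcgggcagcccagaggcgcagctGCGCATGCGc
For the YY1 core, Mrps11 (chr7:78782963-78783071, plus strand) was the only gene with a match that met these conditions. Its window lies within the gene of another member, Mrpl46 (chr7:78775236-78783531, minus strand), and the match reads on the Mrpl46 strand.
Mrps11: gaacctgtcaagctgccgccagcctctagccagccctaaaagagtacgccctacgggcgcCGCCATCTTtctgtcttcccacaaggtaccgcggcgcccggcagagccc

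Levels of the 78 genes were compared per kb of merged exon length. Mrps21 was highest, at a mean over all 15 samples of 3233 normalized counts per kb, followed by Mrpl12 with 2061, Mrpl18 with 1890, Mrpl2 with 1806 and Mrpl34 with 1721. Mrpl33 was lowest with 29.2, followed by Mrps10 with 64.8, Mrps18c with 66.5, Mrps35 with 72.8 and Mrps6 with 110 per kb. Gadd45gip1, at 322 per kb, ranked 45 of 78. Merged exons count every annotated transcript, so a gene with a long unused exon reads low on this scale. Library preparation was directional, per the labels, but whether the counting used strand is not given in the sources used here. In the annotation 12 members overlap a gene on the same strand and 36 a gene on the opposite strand, with 36 overlapping none.

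Summed over the set, the groups overlapped. Summed normalized counts of the 78 genes were 93083, 90671, 82265, 92819 and 89091 in control replicates 1 to 5. They were 100390, 90582, 85633, 87952 and 99609 in the knockouts, and 93683, 93771, 91389, 88431 and 85836 in the D489V samples. Group means were 89586 ± 4407, 92833 ± 6778 and 90622 ± 3449 (SD, n = 5 each). The set took 0.284% ± 0.023 of all normalized counts in controls, 0.282% ± 0.0131 in knockouts and 0.281% ± 0.0138 in D489V samples. The sum over the 51 large-subunit members was 2.38 ± 0.0657 times that of the 26 small-subunit members in controls, 2.43 ± 0.0783 times in knockouts and 2.31 ± 0.0363 times in D489V samples. Mrps36 was counted in neither subunit, since its product is also known as a part of the 2-oxoglutarate dehydrogenase complex. The spread between controls was smaller for the typical member than for the typical gene. The median SD of log2(normalized count + 1) over control samples was 0.152 for the members and 0.276 for all genes tested in knockout against control. These sets were not matched for level, since members had means of 71.5 or more and other genes entered from a value of 10.

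Gadd45gip1 (ENSMUSG00000033751, chr8:84831522-84835482, plus strand, GRCm38, protein-coding) was lower in the D489V samples than in any control. Its normalized counts were 1052, 997, 906, 935 and 1063 in control replicates 1 to 5. The D489V samples had 661, 662, 721, 550 and 599. Knockout samples had 656, 644, 1017, 741 and 832. The D489V range lay wholly below the control range, while the knockouts spread from the D489V level to the control level, with replicate 3 alone among the controls.

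Group means were 990.6 ± 69.5, 778 ± 153 and 638.6 ± 65.7 (SD, n = 5 each) in control, knockout and D489V. D489V samples were lower by 0.64 on the log2(normalized count + 1) scale, used for all differences below (SE 0.0933), a 35.5% lower mean. The knockout minus control difference was -0.37 (SE 0.126), given with no test because it uses the control values that Gadd45gip1 was chosen on. Without the knockout replicate 3 library the other 4 knockouts (718 ± 87.3, SD, n = 4) all lay below the controls, the highest at 832. The knockout minus control difference was then -0.47, also with no test. Knockout minus D489V was 0.27 (SE 0.131), and 0.17 without knockout replicate 3, given with no test because it uses the D489V values that Gadd45gip1 was chosen on. Relative to the sum over the 78 genes, Gadd45gip1 was 1.11% ± 0.067 in controls, 0.846% ± 0.207 in knockouts and 0.704% ± 0.0591 in D489V samples (SD, n = 5).

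**Figure D1:**
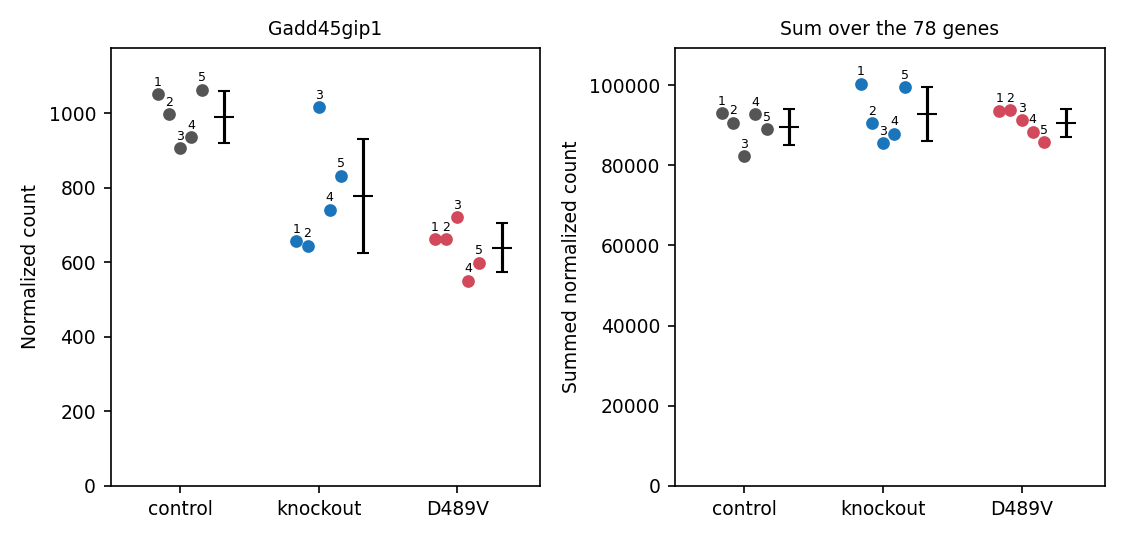
Normalized count of Gadd45gip1 (left) and sum of normalized counts over the 78 genes (right) in each sample, numbered by replicate, with the group mean and SD beside the points. The 5 D489V samples sit between 550 and 721 for Gadd45gip1, below the lowest control at 906, while the sums overlap between all groups.

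The 77 members taken by name gave no call in D489V against control. In D489V against control, 0 of the other 77 members passed the limma test at an adjusted p under 0.05, against 0.0587% of all 15339 genes tested, and 2 had an unadjusted p under 0.05, as had 1447 of all genes. Of the same 77 genes 0 had groups that did not overlap, against 2.16% of all genes. Differences of 71 of the 78 members were within 0.2 and of 76 within 0.3. After Gadd45gip1 the next lowest was Mrps6, a small-subunit protein, at -0.23 (SE 0.169). The median difference was 0.02, beside 0.00 for all genes tested, with 46 of 78 above 0. It turned to -0.01 without control replicate 3.

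Knockout against control gave no call among the 77 members taken by name. Of these 77 members 0 passed the limma test at an adjusted p under 0.05, against 0.00656% of 15234 genes. An unadjusted p under 0.05 was found in 8 of them, as in 2296 of all genes. None had groups that did not overlap, against 2.24% of all genes. The median difference of all 78 members was 0.04, beside 0.01 for all genes tested. It was 0.07 without knockout replicate 3 and 0.00 without knockout replicate 1, and turned to -0.02 with either upper quartile or quantile scaling. Single differences ran from -0.51 for Mrpl33 to 0.52 for Mrpl9. These comparisons use the same 5 controls.

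**Figure D2:**
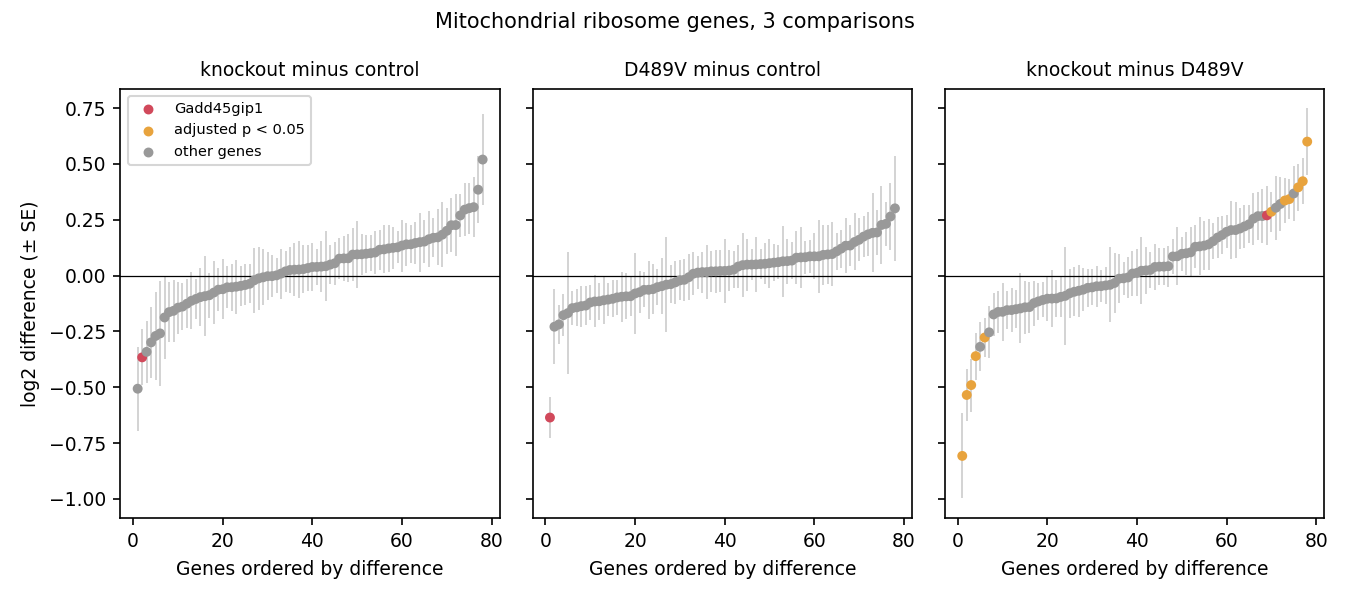
Log2 differences of the 78 genes with SE, ordered from lowest to highest in knockout against control (left), D489V against control (middle) and knockout against D489V (right), with Gadd45gip1 in red and genes with an adjusted p under 0.05 in orange. Gadd45gip1 lies apart from the other genes in D489V against control at -0.64, and 11 genes pass in knockout against D489V.

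Knockout and D489V muscle, the loss and the activation of the receptor, differed in 11 of the 78 members by the limma test at an adjusted p under 0.05. Mrpl9, Mrpl3, Mrpl50, Mrpl37, Mrps25 and Mrpl16 were higher in knockout, and Mrpl33, Mrpl55, Mrpl15, Mrpl23 and Mrps15 were lower. Their share of 14.1% stood beside 20.8% of all 15299 genes tested, and the order of these shares turned without knockout replicate 3 (15.4% and 15%) and with no filter on low values (8.97% and 7.36%). With upper quartile scaling 4 were higher and 6 lower, and with quantile scaling 4 and 5. Among all genes 10.5% were higher and 10.3% lower in knockout. Groups did not overlap in 10 members (12.8%), against 13.9% of all genes. The median member difference was 0.01, beside 0.00 over all genes tested and 0.04 without knockout replicate 3, and it turned to -0.04 with upper quartile scaling, -0.03 with quantile scaling and -0.04 with array weights. Differences were small in most, with 53 of 78 within 0.2. Large-subunit members made 9 of the calls, 5 higher and 4 lower, and small-subunit members made 2, 1 in each direction. Members with bacterial counterparts and mitochondria-specific ones were both among them, with 6 of 29 and 3 of 22 called in the large subunit.

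Markers of some other cell types differed between the same 2 groups, in which 20.8% of all genes were called and 10.3% were called lower. Summed normalized counts of 6 Schwann cell markers were 5672 to 8894 in knockouts and 11310 to 45766 in D489V samples, with 6 of 6 lower in knockout by the same test. The erythrocyte sum was 3175 to 8032 against 12454 to 22120 (5 of 5 lower), the endothelial sum 7501 to 11993 against 13901 to 16124 (5 of 5 lower) and the adipocyte sum 5902 to 10235 against 15086 to 54600 (4 of 6 lower). Mural cell markers, of the type that commonly carries Pdgfrb, had 1 higher and 3 lower of 6, with sums of 20160 to 22446 against 21571 to 27137. Fibroblast markers had 0 of 5 called, at 33818 to 140564 against 61788 to 95925, and slow-fibre markers 0 of 8, at 7387 to 204313 against 39967 to 199266. Markers of macrophages (0 of 5), satellite cells (0 of 4), lymphocytes (0 of 4 tested) and muscle fibres (0 of 10) had no call. Dividing-cell markers had 1 of 5 higher and 0 lower in knockout. No marker on these lists was at 0 in every sample. Their part in the differences below was not tested.

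Among the large-subunit genes that were higher in knockout, Mrpl3 encodes a counterpart of a bacterial core protein. Its normalized counts were 1578, 1487, 1409, 1528 and 2025 in the knockouts and 1116, 1140, 1139, 1308 and 1247 in the D489V samples. All 5 knockouts lay above all 5 D489V samples, and the difference was 0.42 (SE 0.102, limma adjusted p = 0.0167, exact two-sided permutation p = 0.00794, the smallest that 5 against 5 samples can give). Controls, at 1012, 1158, 1347, 1465 and 1529, spanned the gap.

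Mrpl37 and Mrpl50 encode proteins found only in mitochondrial ribosomes. Mrpl37 had 3520, 3192, 3009, 3085 and 3454 in the knockouts against 2393, 2452, 2269, 2845 and 2902 in the D489V samples (difference 0.34, SE 0.0905, limma adjusted p = 0.0232). Mrpl50 had 1636, 1287, 1447, 1309 and 1739 against 1120, 1044, 997, 1254 and 1205 (0.40, SE 0.106, limma adjusted p = 0.0239). Neither gene's groups overlapped, though the lowest knockout and the highest D489V sample of Mrpl50 were close, at 1287 and 1254.

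Mrpl16 encodes a counterpart of a bacterial protein near the peptidyl transferase centre. Its counts were 1604, 1269, 1263, 1204 and 1267 in the knockouts and 1108, 1026, 1035, 1123 and 1102 in the D489V samples (0.29, SE 0.0888, limma adjusted p = 0.0401). Replicate 1 stood above the other knockouts, which still lay above every D489V sample. Mrpl9 had the greatest difference upward, at 0.60 (SE 0.148, limma adjusted p = 0.018), with 2308, 1948, 1546, 1947 and 2792 against 1283, 1208, 1222, 1522 and 1637, but its groups overlapped. The rule for named genes put members whose groups do not overlap first, so Mrpl9 fell outside it and was added after its values were seen.

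In the other direction, Mrpl55, another mitochondria-specific protein, had 989, 634, 842, 723 and 675 in the knockouts and 1125, 1205, 1099, 1077 and 1027 in the D489V samples (-0.53, SE 0.118, limma adjusted p = 0.012). Mrpl15, with a bacterial counterpart, had 1579, 1571, 1794, 1400 and 1699 against 1840, 2722, 2334, 2569 and 1931 (-0.49, SE 0.119, limma adjusted p = 0.0167). Mrpl23, which lies at the exit of the peptide tunnel, had 1090, 1088, 1124, 1087 and 962 against 1599, 1561, 1429, 1173 and 1165 (-0.36, SE 0.106, limma adjusted p = 0.0328). In each of these genes every knockout lay below every D489V sample, though the nearest samples were close, at 989 and 1027 for Mrpl55, 1794 and 1840 for Mrpl15 and 1124 and 1165 for Mrpl23.

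Mrpl33 had the greatest difference of all members, at -0.81 (SE 0.19, limma adjusted p = 0.0151), and encodes a small protein with a bacterial counterpart. Its counts were 172, 132, 157, 155 and 134 in the knockouts (150 ± 16.9, SD, n = 5) and 350, 275, 332, 165 and 234 in the D489V samples (271 ± 75.1). D489V replicate 4, at 165, lay within the knockout range, so the groups overlapped. Controls had 303, 172, 165, 183 and 275.

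Only 1 small-subunit gene passed in each direction. Mrps25, a mitochondria-specific protein, had 846, 991, 783, 866 and 1095 in the knockouts and 738, 731, 777, 712 and 650 in the D489V samples (0.34, SE 0.102, limma adjusted p = 0.0363). Mrps15, with a bacterial counterpart, had 1351, 1260, 1291, 1328 and 1127 against 1714, 1680, 1556, 1380 and 1393 (-0.28, SE 0.0894, limma adjusted p = 0.0456). Their groups did not overlap, but the nearest samples were close, at 783 and 777 for Mrps25 and at 1351 and 1380 for Mrps15.

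The control mean was between the knockout and the D489V mean in 11 of these 11 genes, as in 93% of all 3181 genes called in this comparison. The control range reached into the ranges of both mutants in 11 of 11, beside 88.3% of all called genes. None of these 11 genes passed in either comparison with controls.

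**Figure D3:**
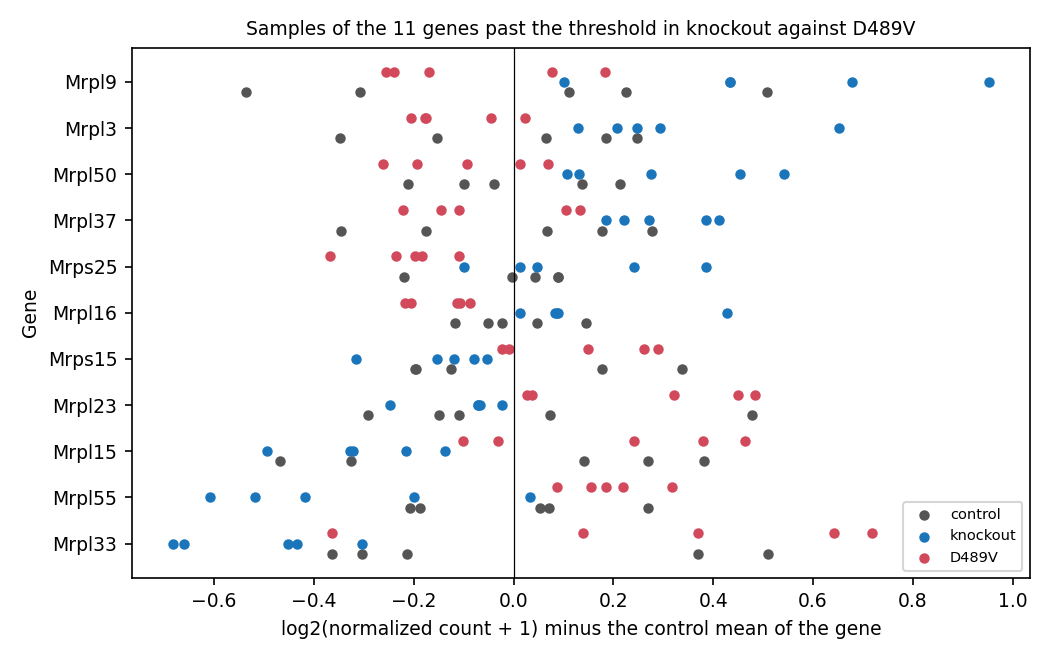
Each sample's log2(normalized count + 1) minus the control mean of the gene, for the 11 genes with an adjusted p under 0.05 in knockout against D489V, ordered by that difference. Blue knockout and red D489V points are apart from each other except in Mrpl9 and Mrpl33, where they overlap, and grey control points reach both.

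The number of calls depended on single libraries, for the members and for all genes alike. It was 4 without D489V replicate 2 (10.1% of all genes called) and 5 without D489V replicate 1 (9.26%). It was 6 without knockout replicate 5 (14.2%) or D489V replicate 3 (13.2%), 7 without knockout replicate 1 (16.1%) or 2 (18.5%), and 12 without knockout replicate 3 (15%). Mrpl33, Mrpl55, Mrpl15 and Mrpl3 passed under all 19 alternatives tried.

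Genes that serve the mitochondrial ribosome, taken from lists of known factors, were then read beside it. Of 26 genes for ribosome assembly 6 were higher and 0 lower in knockout than in D489V, a share of 23.1%, beside 20.8% of all genes called and 10.5% called higher. They included Fastkd2, an RNA-binding protein of mitochondrial RNA granules (757 ± 150 against 478 ± 71.0, SD, n = 5, difference 0.66), and Tfb1m, which methylates the small ribosomal RNA (227 ± 32.4 against 148 ± 13.7, difference 0.61). Of 15 translation factors 6 (40%) were higher and 0 lower, beside the same 10.5% and 10.3% of all genes. Taco1, a translational activator, had the greatest difference at 1.32 (SE 0.356, limma adjusted p = 0.0245). The elongation factor Gfm1 had 4008 ± 200 against 2430 ± 636 (0.76, SE 0.148, limma adjusted p = 0.00746) and Lrpprc, which stabilises mitochondrial messenger RNAs, 3377 ± 155 against 2201 ± 508 (0.65, SE 0.134, limma adjusted p = 0.00946).

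Mitochondrial tRNA synthetases had 6 of 17 (35.3%) higher and 0 lower, beside 10.5% of all genes higher, including Mars2 (0.44) and Ears2 (0.43). Genes for transcription and upkeep of mitochondrial DNA had 3 of 9 (33.3%) higher and 0 lower, namely Tefm (0.52), Twnk (0.44) and Tfam (0.28). List medians in knockout minus D489V were 0.21 for assembly, 0.24 for translation factors, 0.30 for synthetases and 0.26 for DNA upkeep, beside 0.01 for the 78 ribosome members and 0.00 for all genes. In knockout against control 0 genes of these 4 lists passed, with medians of 0.14, 0.14, 0.19 and 0.26. In D489V against control 0 passed, with medians of -0.06, -0.13, -0.08 and 0.03. Whether these lists differ from the ribosome members was not tested.

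**Figure D4:**
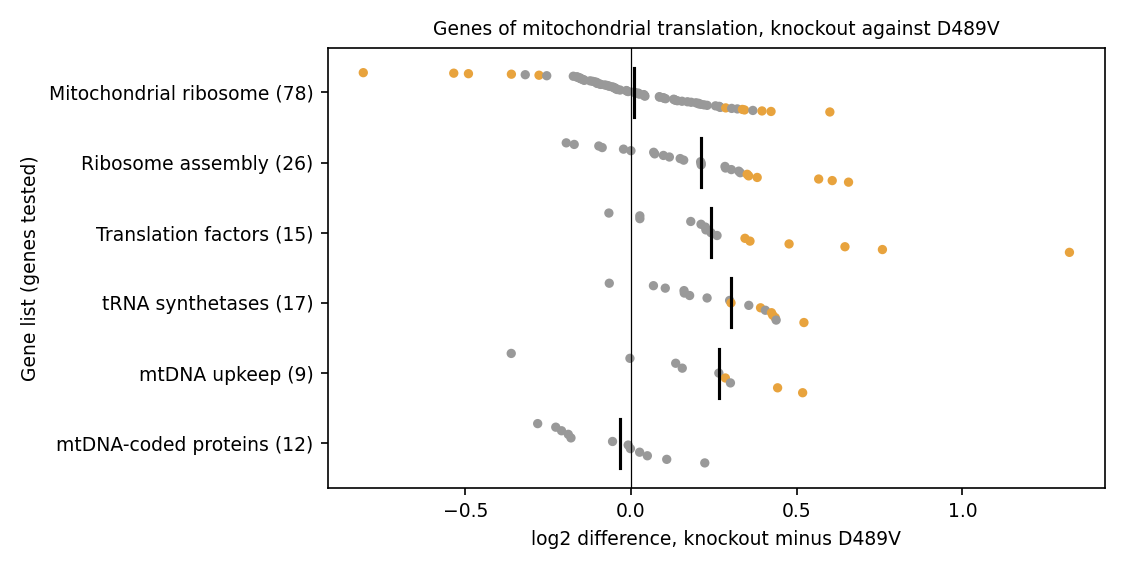
Log2 difference, knockout minus D489V, for each gene of 6 lists of mitochondrial translation, with the list median as a black bar and genes with an adjusted p under 0.05 in orange. Ribosome genes centre on 0.01 with calls on both sides, while the called genes for assembly, translation factors, tRNA synthetases and mtDNA upkeep are all on the knockout side.

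Ribosome proteins outside the symbol pattern were Dap3, Ptcd3, Chchd1 and Aurkaip1. Ptcd3 was higher in knockout than in D489V at 0.47 (SE 0.124, limma adjusted p = 0.0225), and the other 3 did not pass. Of the 12 proteins encoded by mitochondrial DNA that were tested, 0 passed, with a median of -0.03. Cytosolic ribosome genes had 0 higher and 8 lower of 82 (9.76% called), with a median of -0.16. Nuclear respiratory chain genes had 2 higher and 2 lower of 79 (5.06% called), with a median of -0.06. Both shares were below the 20.8% of all genes called in this comparison.

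Of 10 regulators of these genes 1 was higher and 1 lower in knockout than in D489V, a share of 20%, beside 20.8% of all genes. Esrra, a nuclear receptor of oxidative metabolism, was higher in knockout (0.37, SE 0.104, limma adjusted p = 0.0274) and Myc lower (-0.78, SE 0.209, limma adjusted p = 0.0238). The coactivator Ppargc1a had 1134 ± 618 in knockouts and 530 ± 142 in D489V samples, with a limma adjusted p of 0.051. Of 16 listed genes of the mitochondrial stress response 13 were tested and 5 called (38.5%), beside 20.8% of all genes. The folate enzyme Mthfd2 (0.70) and the chaperone Hspd1 (0.52) were higher, 2 of 13 beside 10.5% of all genes. Asns (-1.24), Psat1 (-0.62) and the transcription factor Atf5 (-0.53) were lower, 3 of 13 beside 10.3%. Gadd45a, Gadd45b and Gadd45g, of the family after which Gadd45gip1 is named, were read with Nr4a1. Of these 4 genes 0 were higher and 2 lower in knockout by the limma test (50%, beside 20.8% of all genes). Gadd45g and Gadd45b had lower values in knockout than in D489V muscle (-1.03 and -0.68). Differences of the 4 genes ran from -1.03 to 0.26, with 1 above 0.

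Likeness to Gadd45gip1 was described by Pearson's r of log2 values over the 15 samples, which share their 3 groups, with no test. Among the 77 other members the most alike were Mrps25 (r = 0.356), Mrps6 (0.322), Mrps18c (0.304), Mrpl19 (0.247) and Mrpl10 (0.246). With group means removed these were 0.0136, 0.0622, 0.261, -0.117 and -0.00826. Only 30 of 77 had an r above 0, the median was -0.0389 and the lowest -0.546. Between all 3003 pairs of members the median was 0.211. Among 12153 genes with a mean of 50 or more, the most alike were Wdr83os (0.854), Nop58 (0.824), Tstd2 (0.804), Ccna2 (0.793) and Wdr83 (0.784), beside a median of -0.0294. With group means removed these were 0.675, 0.766, 0.676, 0.398 and 0.821. Ccna2 is a cyclin of dividing cells. The sum over 5 dividing-cell markers was 473 to 952 in controls, 150 to 593 in knockouts and 119 to 292 in D489V samples. Ccna2 is on that list, so the list is not independent of the likeness to Gadd45gip1. By the limma test 2 of the 5 were lower in D489V than in control, beside 0.0587% of all genes called. The part of these markers in the Gadd45gip1 difference was not tested.

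Wdr83os and Wdr83 lie on chromosome 8 245 kb and 240 kb from Gadd45gip1. Wdr83os, an endoplasmic reticulum membrane protein gene, had 745, 736, 684, 785 and 825 in controls, 574, 605, 736, 557 and 548 in knockouts and 586, 569, 683, 548 and 543 in D489V samples. Its D489V samples lay below all controls, and knockout replicate 3 was again the highest knockout. Wdr83 had 735, 798, 768, 719 and 806 in controls, 666, 619, 835, 680 and 789 in knockouts and 694, 704, 800, 641 and 572 in D489V samples, which overlapped.

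The genes reaching within 300 kb on either side were then examined, a window chosen after these values were seen. Of 27 neighbours tested 0 passed in D489V against control, and 3 (11.1%) had groups that did not overlap, against 2.16% of all genes. That share includes Wdr83os, whose values were seen before the window was chosen. The nearest D489V and control samples were close, at 1301 and 1250 for Gcdh, 1267 and 1245 for Junb and 683 and 684 for Wdr83os. Gcdh, a mitochondrial enzyme of lysine breakdown, was higher in D489V, with 1647 ± 205 against 1124 ± 128 (SD, n = 5, difference 0.55, limma adjusted p = 0.0947). Junb, an immediate early transcription factor, was higher at 1439 ± 190 against 824 ± 339 (0.89, limma adjusted p = 0.221), and Wdr83os was lower (-0.37, limma adjusted p = 0.185). In knockout against control 0 of 27 passed. In knockout against D489V 3 (11.1%) passed, beside 20.8% of all genes, with Ier2 and Junb lower and Nacc1 higher in knockout.

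**Figure D5:**
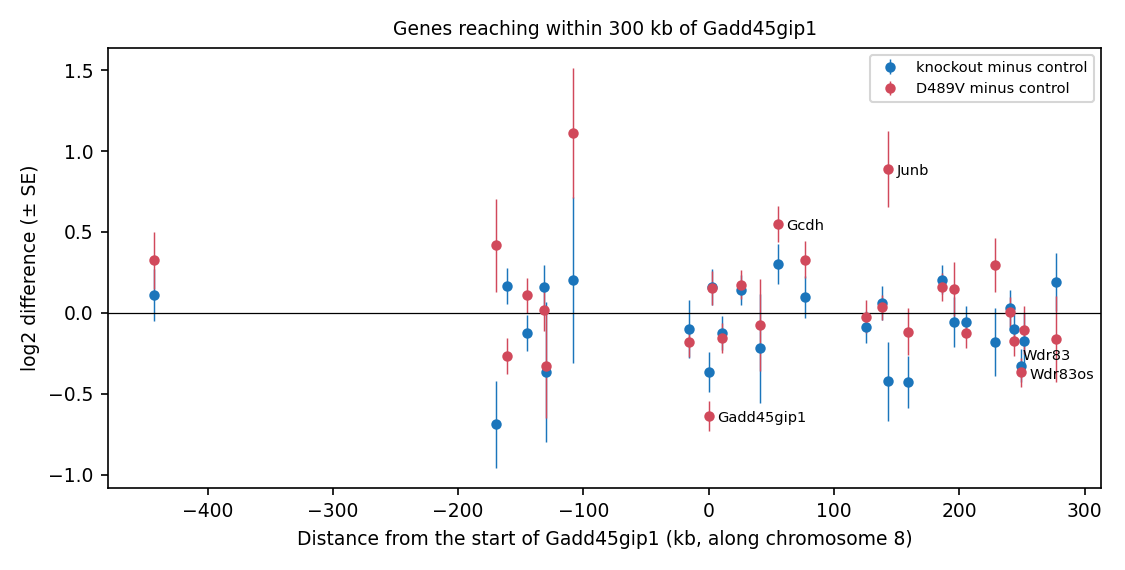
Log2 difference with SE against control for Gadd45gip1 and the 27 tested genes reaching within 300 kb of it, by distance between gene starts in kb along chromosome 8, in knockout (blue) and D489V (red). Gadd45gip1 is lower at 0 kb, and Gcdh, Junb and Wdr83os are the neighbours whose D489V samples do not overlap controls.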

How the data were processed

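RNA was measured in 15 muscle samples, 5 per group, by directional poly(A) RNA sequencing. Each deposited value is treated as a score, since the authors had normalized the gene counts and rounded them to whole numbers, in a pair of tables that share identical control columns, per the file headers and the values. Trim Galore 0.6.0, cutadapt, FastQC, STAR 2.7.0e, DESeq2 1.26.0 and build GRCm38 are named, without roles, in the submitters' processing notes; the counting tool and annotation are not given in the sources used here. Raw depth is unknown.

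All 55536 gene IDs matched GENCODE M21, whose exons gave gene positions and lengths. For each pair of groups, a two-sided moderated linear model (limma 3.58.1, R 4.3.3, trended prior) was fitted to log2(value + 1). Genes entered where 5 or more samples of the pair reached a value of 10, with Benjamini-Hochberg adjustment over all genes tested and a threshold of 0.05. The fit was tested on simulated data. Whole-number rounding and the added 1 shrink differences of low genes. Gene lists, members and tests were chosen with earlier results of these data known. The text names Gadd45gip1 and the called members (in each direction 5, those whose groups do not overlap first, then by size). It also names the 5 members and 5 genes most like Gadd45gip1 in Pearson's r. The 5 highest and lowest members are named by level per kb of merged exon length. The rule for named genes had ranked those by mean normalized count over the 15 samples, so that measure was changed. Alternatives were other filters, pseudocounts and scalings, robust eBayes, array weights, a joint fit, a replicate block and leaving out each sample. The main fit did not pair samples by replicate number. The labels gave no batch, so whether same-numbered samples were handled together is not known.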

Additional observations from a re-analysis of the deposited data

Results flagged for a closer look

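In 3 cases, knockout values of called members stood apart from the other 4 of their group, by Dixon's test of the gap to the nearest sample over the range. Mrpl16 had 1604 normalized counts in knockout replicate 1, against 1204 to 1269 in the others. Mrpl23 had 962 in knockout replicate 5, against 1087 to 1124. Mrpl3 had 2025 in knockout replicate 5, against 1409 to 1578. Chance flags about 1 in 20 groups, and 3 of 63 groups tested were flagged.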

How the results depend on the processing

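Over 19 alternatives per comparison, 0 of the 77 members other than Gadd45gip1 passed in knockout against control in each. In D489V against control 0 of the 77 members other than Gadd45gip1 passed in each. The count over all 78 adds only Gadd45gip1, which was chosen on this comparison, so it is a description. It was 1, became 0 with a mean filter of 50, with quantile scaling, in the joint fit of all 3 groups and with the replicate block, and ran from 0 to 1 when single samples were left out. The log2 difference of Gadd45gip1 there lay between -0.68 and -0.58, given with no test. In knockout against D489V the count of 11 was 7 with no filter on low values (7.36% of all genes called), 13 with a mean filter of 50 (25.2%) and 16 with array weights (29.1%), and ran from 4 to 12 when single samples were left out. The replicate block gave 8 members there (14.4% of all genes). When single samples were left out, the lowest and highest median member difference were 0.00 and 0.07 for knockout against control, and -0.03 and 0.04 for knockout against D489V. Same-numbered samples correlated at -0.28 to 0.29, -0.35 to 0.36 and -0.08 to 0.14 in their deviations from group means in the 3 comparisons. Of 266 values for single genes 0 changed direction. Mrpl9 passed in 18 of 19 alternatives, Mrpl37 in 15, Mrpl50 in 14, Mrpl23 in 10, Mrps15 and Mrps25 in 8 and Mrpl16 in 7. The cause was not tested. Raw depth was not known, so the precision of low members such as Mrps18c could not be given.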
